A study of Mus musculus with 16 samples.

Results

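The 10 genes described here, Fos, Fosb, Jun, Junb, Egr1, Ier2, Nr4a1, Atf3, Dusp1 and Zfp36, are immediate early genes, and they were followed in iWAT, the inguinal white adipose tissue that lies under the skin of the groin. They were taken from a list of known genes of this class, not by a cut on their values, though earlier results of these data were known. Each was matched by its Ensembl identifier among the 54752 genes counted. All 10 passed the filter on low counts that kept 19736 genes. The tissue came from C57BL/6 mice labelled as females aged 90 days, and RNA sequencing gave 16 libraries, 4 for each of 4 genotypes. Neither allele was present in WT mice. Lepob/+ mice carried the ob allele of Lep, the leptin gene, on 1 of their chromosomes and kept a normal allele on the other. SOD1G93A mice, a model of amyotrophic lateral sclerosis, carried a mutant human SOD1 transgene at a high copy number beside their own Sod1, and SOD1G93A-Lepob/+ mice carried both alleles. The study asked how the transgene, the lowering of leptin and the pair of them altered the fat. No agent was given to any group according to the labels, and how long the tissue lay between death and freezing is not given in the sources used here. The sources do not say which libraries share a litter, so every p-value measures the spread between these samples.

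Immediate early genes are switched on within minutes of a stimulus without new protein synthesis, because the factors that drive them, such as SRF with its ETS partners and CREB, already sit at their promoters. Their mRNAs are short-lived, and several of their products, such as the dual specificity phosphatase DUSP1 and the mRNA decay factor ZFP36, shut the response down again. In fat tissue, growth factors, adrenergic signals, mechanical stress and cutting or dissociation of the tissue can all raise them, which is why they are also read as a trace of handling.

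Sequences upstream of the annotated start were taken from RefSeq for 8 of the 10 genes, all but Egr1 and Ier2, on GRCm38.p6. The 250 bases before the start are shown for 4 genes: Fos and Fosb, which reached their highest level in the same library, Nr4a1, which reached its highest level in another, and Zfp36, which varied least. The Fos stretch is chr12:85473640-85473889 on the plus strand, the Fosb stretch chr7:19310046-19310295 on the minus strand, the Nr4a1 stretch chr15:101266596-101266845 on the plus strand and the Zfp36 stretch chr7:28379229-28379478 on the minus strand. Gene positions given below come from GENCODE, another annotation. In it Nr4a1 and Zfp36 begin farther upstream, so those stretches lie inside the GENCODE genes. Capitals mark TGACG on either strand (the core of the cyclic AMP response element, bound by CREB), TATAAA (the TATA box) and the CArG box bound by SRF.
Fos: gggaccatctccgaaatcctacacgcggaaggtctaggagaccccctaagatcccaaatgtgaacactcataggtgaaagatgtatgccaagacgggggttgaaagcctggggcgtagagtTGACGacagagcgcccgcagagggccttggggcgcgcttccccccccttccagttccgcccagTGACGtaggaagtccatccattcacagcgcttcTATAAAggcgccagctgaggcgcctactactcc
Fosb: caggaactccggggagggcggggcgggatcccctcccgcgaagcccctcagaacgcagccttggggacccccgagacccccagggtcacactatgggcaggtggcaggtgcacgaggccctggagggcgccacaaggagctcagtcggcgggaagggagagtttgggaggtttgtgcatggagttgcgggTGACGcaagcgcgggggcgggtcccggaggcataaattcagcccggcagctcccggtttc
Nr4a1: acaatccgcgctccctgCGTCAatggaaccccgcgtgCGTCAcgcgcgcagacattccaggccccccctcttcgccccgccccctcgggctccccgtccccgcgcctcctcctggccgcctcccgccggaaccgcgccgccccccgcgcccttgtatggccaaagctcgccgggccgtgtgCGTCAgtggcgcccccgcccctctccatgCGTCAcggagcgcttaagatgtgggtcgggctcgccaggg
Zfp36: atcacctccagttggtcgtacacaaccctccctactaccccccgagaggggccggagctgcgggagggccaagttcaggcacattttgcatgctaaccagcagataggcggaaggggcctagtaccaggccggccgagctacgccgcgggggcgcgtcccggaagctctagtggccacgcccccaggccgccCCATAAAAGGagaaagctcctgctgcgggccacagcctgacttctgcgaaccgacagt
The core TGACG on either strand was found before 6 of the 8 genes, Fos, Fosb, Junb, Nr4a1, Atf3 and Dusp1, and in 17.8% of all 32851 promoter stretches of the same length. Nr4a1 held it at 4 places and Fos at 2. The longer palindrome TGACGTCA, which contains the core, stood before Dusp1 and in 1.55% of all promoters. A CArG box stood before Zfp36 and in 1.47% of all promoters, and TATAAA stood before Fos and in 12.4% of them. The AP-1 element TGANTCA with C or G in the middle, which the FOS and JUN proteins bind, was found in none of the 8 stretches and in 4.46% of all promoters. These matches are letters in a window and say nothing of binding in this tissue.

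The 16 libraries held 36783353 to 61865634 counts in the genes that passed the filter. All had strong mature adipocyte markers, with 14210 to 33100 CPM (counts scaled to a common library total) summed over that list of 10 genes. Lepob/+ replicate 4 held skeletal muscle RNA, with 176200 CPM summed over 10 muscle markers and none of the 10 at 0. WT replicate 3 held 4479 CPM of the same markers and the other 14 libraries 21.1 to 306 CPM. In 6 libraries (WT replicates 1 and 2, Lepob/+ replicate 3 and SOD1G93A replicates 1, 2 and 4) the T cell list summed to 616 to 1223 CPM, and the other 10 held 13.7 to 39.1 CPM. The library labelled SOD1G93A-Lepob/+ replicate 3 had 0 counts of Xist and 1756 counts of Y-linked genes although labelled female. The mean of mouse Sod1 lay between 358 ± 67.4 CPM (Lepob/+) and 400 ± 67.0 CPM (WT; SD, n = 4 in both). Those reads of mouse Sod1 do not measure the human transgene, and Lep counts do not show which allele was read. Lep averaged from 431 ± 262 CPM in WT to 915 ± 621 CPM in SOD1G93A-Lepob/+ (SD, n = 4 in both).

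The members differed widely in level. Scaled to the length of the gene's exons, the highest mean over the 16 libraries was that of Zfp36, at 32.4 ± 5.37 CPM per kb (SD). Ier2 (25.7 ± 6.09), Jun (25.6 ± 10.03), Junb (23.4 ± 6.02) and Dusp1 (22.6 ± 8.02) followed and overlapped within their spread. Egr1 stood at 13.9 ± 5.96, Fos at 11.5 ± 9.44 and Nr4a1 at 10.6 ± 20.7 CPM per kb, the last with a range from 1.97 to 87.8. Atf3 was lower at 4.70 ± 1.82 and Fosb lowest at 0.807 ± 0.661 CPM per kb, the only member under 1 on average. Counts per library ran from 34 to 733 for Fosb and from 3340 to 6483 for Zfp36, so counting error was widest for Fosb. Every value that follows is in CPM, scaled by TMM, a factor per library that discounts a few very abundant genes.

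Fos and Fosb stood out in a single library, WT replicate 4. Fos encodes the c-FOS subunit of AP-1 and lies at chr12:85473890-85477273 on the plus strand. It was at 21.9, 21.1, 21.7 and 109 CPM in WT replicates 1 to 4, at 27.6, 18.01, 17.1 and 27.0 for Lepob/+, at 17.2, 13.4, 23.7 and 20.4 for SOD1G93A and at 24.0, 30.5, 18.3 and 22.6 for SOD1G93A-Lepob/+. WT replicate 4 was thus 5.003 times the median of the other 15 libraries, while those 15 lay between 13.4 and 30.5 CPM and overlapped in all genotypes. Fosb, a FOS relative that also pairs with JUN proteins, lies at chr7:19302696-19310051 on the minus strand. Its values were 4.56, 2.30, 5.06 and 19.4 CPM in WT, 4.22, 5.01, 0.826 and 4.26 for Lepob/+, 5.35, 4.18, 4.87 and 7.32 for SOD1G93A and 2.52, 4.57, 4.399 and 1.83 for SOD1G93A-Lepob/+. WT replicate 4 was 4.41 times the median of the others, and the lowest library was Lepob/+ replicate 3.

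The JUN partners were less extreme in their highest library. Jun encodes c-JUN, the other AP-1 subunit, and lies at chr4:95049034-95052222 on the minus strand. It was at 45.2, 56.0, 87.5 and 123 CPM in WT, 88.1, 89.0, 46.8 and 172 for Lepob/+, 58.1, 57.7, 74.7 and 61.5 for SOD1G93A and 75.3, 80.5, 101 and 89.5 for SOD1G93A-Lepob/+. All 4 SOD1G93A-Lepob/+ libraries lay above all 4 of SOD1G93A, and ranges were apart for 7.18% of genes in either direction. The SOD1G93A libraries high in the T cell list, replicates 1, 2 and 4, were at 57.7 to 61.5 CPM. Replicate 3, low in that list, was at 74.7 CPM, close to the lowest SOD1G93A-Lepob/+ library at 75.3 CPM. The part of lymphocyte RNA in this difference was not tested. Junb, whose product often restrains c-JUN, was highest in WT replicate 4 at 78.5 CPM, against 49.9 to 70.1 in the other WT libraries, 35.8 to 73.7 for Lepob/+, 33.9 to 67.2 for SOD1G93A and 36.6 to 56.1 for SOD1G93A-Lepob/+. The genotypes overlapped for Junb. Exons of Junb overlap those of Prdx2 on the opposite strand, at a median of 152 CPM. The strand setting of the counting is not stated, and the length of the overlap was not measured. How far reads of the pair mix is thus not known. Jun has a far weaker neighbour of this kind, Junos, at a median of 1.64 CPM.

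Egr1 and Ier2 were also highest in WT replicate 4. Egr1, a zinc finger factor and a classic target of SRF, was at 63.4, 59.3, 98.0 and 145 CPM in WT, 54.1, 31.2, 57.4 and 52.7 for Lepob/+, 64.4, 69.7, 47.2 and 46.1 for SOD1G93A and 66.4, 54.4, 39.3 and 45.6 for SOD1G93A-Lepob/+. All WT libraries lay above all Lepob/+ libraries, and ranges were apart for 0.903% of genes in either direction. Ier2, a small nuclear protein gene at chr8:84661331-84662852 on the minus strand, was at 45.6, 45.7, 39.8 and 57.8 CPM in WT, 33.5, 29.7, 42.7 and 28.5 for Lepob/+, 48.4, 53.9, 26.6 and 39.2 for SOD1G93A and 37.4, 36.05, 29.9 and 31.6 for SOD1G93A-Lepob/+. The WT range did not overlap that of SOD1G93A-Lepob/+, which lay below it. This held for 1 other member, Nr4a1, and for 3.64% of genes in either direction.

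Nr4a1 was highest in another library. It encodes the orphan nuclear receptor NUR77 and lies at chr15:101254269-101274795 on the plus strand. It was at 21.1, 20.2, 26.5 and 19.9 CPM in WT, 14.0, 11.4, 26.4 and 308 for Lepob/+, 34.8, 30.4, 11.1 and 21.7 for SOD1G93A and 8.74, 16.3, 17.6 and 6.91 for SOD1G93A-Lepob/+. Lepob/+ replicate 4 was 15.5 times the median of the other 15, which reached at most 34.8 CPM, and it is the library with the skeletal muscle RNA. Its TMM factor was 0.664, against 0.936 to 1.11 in the others, and without TMM its Nr4a1 level was 204 CPM. The part of the muscle RNA in this value was not tested, and in bulk tissue fewer cells of a type and less RNA per cell cannot be told apart. In WT replicate 4, where Fos and Fosb peaked, Nr4a1 was the lowest of the WT libraries.

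The remaining members, Atf3, Dusp1 and Zfp36, were spread over genotypes that overlapped. Atf3, a stress-induced repressor, ranged from 4.28 CPM in Lepob/+ replicate 3 to 18.8 CPM in Lepob/+ replicate 4, with 15.8 CPM in WT replicate 4. Dusp1, the phosphatase that inactivates MAP kinases, was at 40.5, 39.99, 122 and 98.3 CPM in WT, 68.3, 75.7, 45.9 and 89.9 for Lepob/+, 71.6, 54.3, 111 and 57.0 for SOD1G93A and 43.2, 81.5, 101 and 97.2 for SOD1G93A-Lepob/+. Exons of Dusp1 overlap those of Ergic1, at a median of 125 CPM, on the opposite strand. The length of this overlap was not measured either, so its part in the Dusp1 counts is not known. Zfp36, which binds and destabilises cytokine mRNAs, ranged only from 75.8 to 146 CPM, and its highest library, SOD1G93A replicate 2, was 1.41 times the median of the others. WT replicate 4 was highest for 5 members and Lepob/+ replicate 4 for 3 (Jun, Nr4a1 and Atf3). With library totals in place of TMM these became 7 and 1, since Jun and Atf3 then peaked in WT replicate 4, at 126 CPM for Jun against 114 CPM in Lepob/+ replicate 4.

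**Figure D1:**
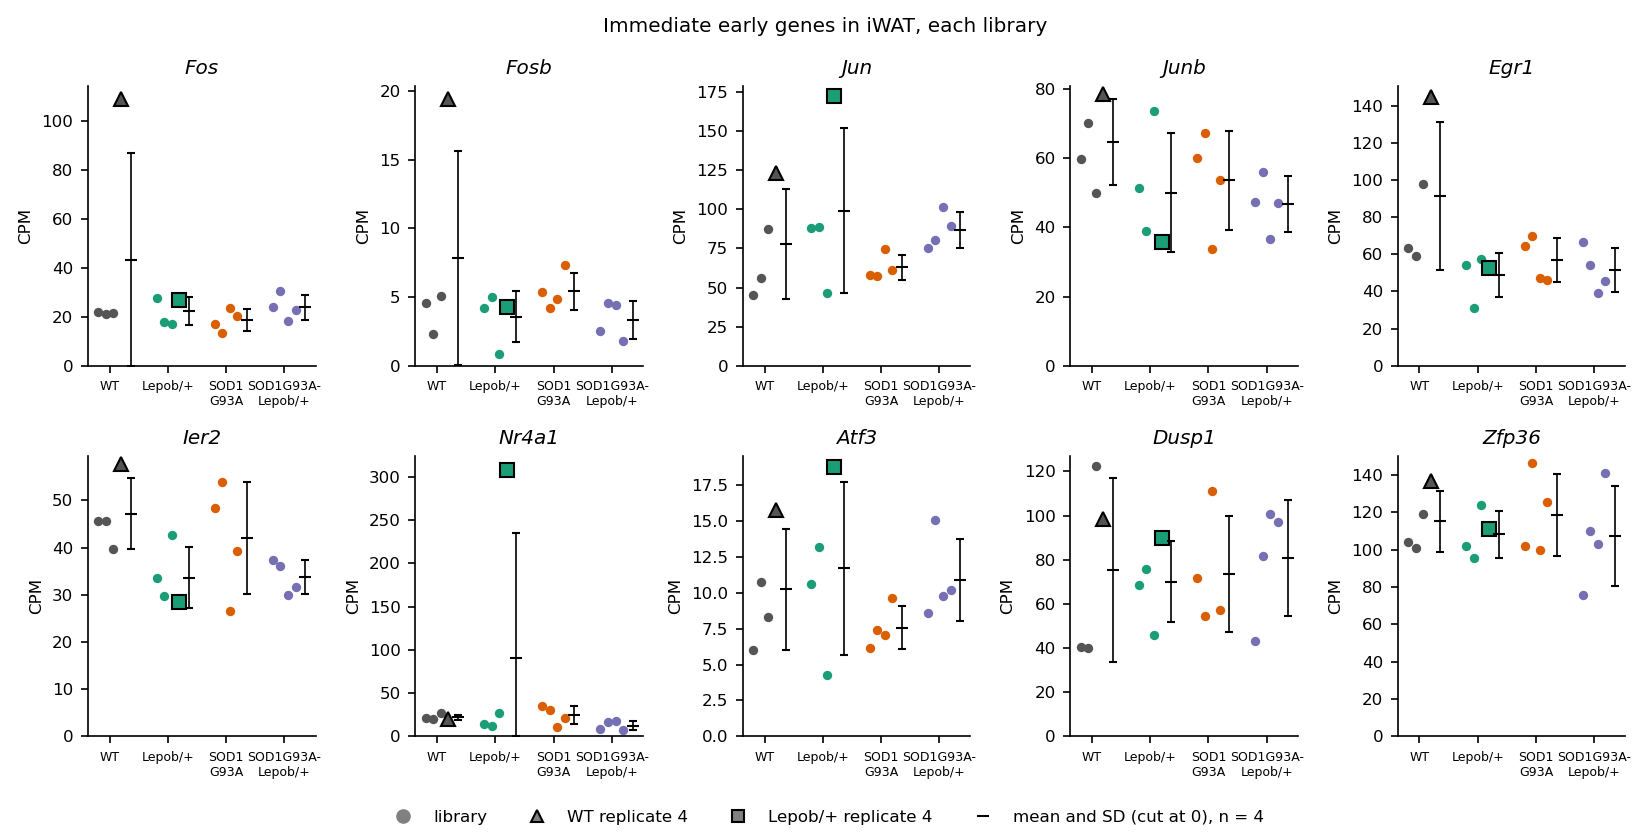
Levels of the 10 genes in CPM (TMM scaled, linear axes from 0, each gene on its own scale), with 1 point per library, grouped by genotype; the triangle is WT replicate 4, the square Lepob/+ replicate 4, and the dash with its bar the mean and SD of 4 libraries, cut at 0. Fos (109 CPM) and Fosb (19.4 CPM) in WT replicate 4 and Nr4a1 (308 CPM) in Lepob/+ replicate 4 sit far above the other libraries, while Zfp36 stays between 75.8 and 146 CPM.

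On the summed CPM of the markers of other cells, WT replicate 4 lay inside the range of the other libraries. By mean log2 CPM, which weighs weak markers more, it was the lowest of the 16 for the lymph node list (0.24) and the skeletal muscle list (-1.15). Its skeletal muscle list summed to 39.3 CPM with 3 of 10 markers at 0, its T cell list to 39.1 CPM, and its lymph node list of 11 genes to 451 CPM with 3 at 0. Among the 10 libraries low in T cell RNA, however, it was highest for the T cell list and the B cell list (36.4 CPM). The others of those 10 reached at most 22.2 and 20.5 CPM. Its macrophage list (3024 CPM) and adipocyte progenitor list (14790 CPM) were inside the ranges of the 14 libraries other than it and Lepob/+ replicate 4, which were 730 to 3782 CPM and 4367 to 16120 CPM.

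Mean levels in some genotypes rested on single high libraries. Fos averaged 43.4 ± 43.6 CPM in WT, 22.4 ± 5.66 for Lepob/+, 18.7 ± 4.42 for SOD1G93A and 23.9 ± 5.03 for SOD1G93A-Lepob/+ (SD, n = 4 each). Nr4a1 averaged 21.9 ± 3.08, 89.9 ± 146, 24.5 ± 10.5 and 12.4 ± 5.35 CPM in the same order (SD, n = 4 each). A SD as large as the mean, as for Fos in WT and Nr4a1 in Lepob/+, came from the single high library. When the genotypes were ordered by their means for each gene, the ranges of mean ± SD overlapped in 29 of the 30 neighbouring steps, and the exception was Nr4a1 in WT over SOD1G93A-Lepob/+. Neighbours in such an order are the closest genotypes, so overlap was likely in advance. The share of such steps over all genes was not counted. WT held the highest mean for 5 of the 10 members, Fos, Fosb, Junb, Egr1 and Ier2, each of which peaked in WT replicate 4. By median, WT stayed highest for Junb, Egr1 and Ier2. It did not for Fos (21.8 CPM, against 23.3 for SOD1G93A-Lepob/+) or Fosb (4.81 CPM, against 5.11 for SOD1G93A). The share of all genes with their highest mean in WT was not counted.

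Lepob/+ against WT asks what 1 ob allele did in mice with no transgene. No member was called by edgeR's quasi-likelihood test (adjusted p under 0.05), nor was any of the 19736 genes (0%). At an unadjusted p under 0.05 lay 3 of 10 members, against 4.37% of all genes: Nr4a1 higher, as were 3.56% of genes, and Egr1 and Ier2 lower, as were 0.811%. The fitted direction was lower for 7 members and higher for 3, against 44.4% and 55.6% of all genes. The members' median log2 fold change was -0.24 and that of all genes 0.03. Egr1 had the clearest difference, with a log2 fold change of -0.90 (SE 0.29, 95% interval -1.52 to -0.29, edgeR adjusted p = 1.00). It was -0.61 without WT replicate 4. The ranges of WT and Lepob/+ were apart for Egr1 alone among the members, and for 0.903% of genes in either direction. Ier2 had -0.49 (SE 0.20, 95% interval -0.92 to -0.06).

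Values of the other genes in that comparison turned on the high libraries. Nr4a1 had a log2 fold change of 2.04 (SE 0.86, 95% interval 0.20 to 3.88), which was -0.36 without Lepob/+ replicate 4, so its direction turned. Fos had -0.95 (SE 0.47, 95% interval -1.95 to 0.05) and 0.04 without WT replicate 4, and Fosb had -1.13 (SE 0.61) and -0.18. Without both libraries, an alternative chosen after seeing the data, Egr1 was at -0.65, Fos at -0.07, Fosb at -0.27 and Nr4a1 at -0.41. Scaling by library totals, which moved the median of all genes to -0.13, turned Atf3 from 0.19 to -0.06 and left Nr4a1 at 1.49.

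SOD1G93A against WT asks what the transgene did with leptin intact. Again 0 of 10 members and 0 of all genes were called by edgeR (0%), and 2 members lay at an unadjusted p under 0.05, against 2.56% of genes. Both were lower, as were 0.917% of genes, while 0 members and 1.64% of genes were higher. The fitted direction was lower for 8 of the 10 and higher for 2, against 47% and 53% of genes. The median log2 fold change of the members was -0.29 and that of all genes 0.02. Fos had -1.21 (SE 0.47, 95% interval -2.22 to -0.21, edgeR adjusted p = 0.999) and Egr1 -0.68 (SE 0.29, 95% interval -1.30 to -0.07). Without WT replicate 4 these were -0.23 and -0.40, and Fosb turned from -0.53 to 0.43. No member had ranges apart, against 2.05% of genes. The same 4 WT libraries served this comparison and that of Lepob/+ with WT.

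SOD1G93A-Lepob/+ against SOD1G93A asks what lowering leptin did on the transgenic background. By edgeR 0 members were called (0% of genes), the smallest adjusted p among them was 0.428, and 0 lay at an unadjusted p under 0.05, against 16.5% of genes (4.19% higher and 12.3% lower). In the fit 4 members were higher and 6 lower, against 50.1% and 49.9% of genes. Jun had a log2 fold change of 0.46 (SE 0.34, 95% interval -0.28 to 1.20) and was the member with ranges apart, as were 7.18% of genes. Nr4a1 had -0.98 (SE 0.84, 95% interval -2.77 to 0.81) and Atf3 0.53 (SE 0.38). Other tools called a member here: DESeq2 fitted on these genotypes called Jun (log2 fold change 0.46, adjusted p = 0.0477) among 6.06% of genes, and voom (limma, with quality weights) found Nr4a1 past the threshold (-1.36, adjusted p = 0.0165) among 31.5% of genes. The members' share, 1 of 10 by each tool, was thus near or under that of all genes. Of the SOD1G93A libraries 3 of 4 were rich in lymphocyte RNA and of SOD1G93A-Lepob/+ 0 of 4. With the mean level of the lymph node list as a covariate Jun was at -0.21, so its direction turned, Dusp1 moved from 0.13 to -0.58 and Fosb from -0.70 to -1.95, with 0 genes called by edgeR. Without Lepob/+ replicate 4 and the library with Y-linked counts, Jun was at 0.38 and Nr4a1 at -1.19, and 0 members were called by edgeR in any comparison.

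SOD1G93A-Lepob/+ against Lepob/+ asks what the transgene did with leptin lowered. By edgeR 0 members were called (0% of genes), and 1 member, Nr4a1, lay at an unadjusted p under 0.05, against 8.24% of genes. It was lower, as were 6.28% of genes, and 1.96% of genes were higher. In the fit 4 members were higher and 6 lower, against 42.1% and 57.9% of genes. Nr4a1 had a log2 fold change of -2.86 (SE 0.89, 95% interval -4.76 to -0.96, edgeR adjusted p = 0.597), and -0.48 without Lepob/+ replicate 4. The other 9 members lay between -0.19 for Jun and 0.20 for Dusp1, with a median over all 10 of -0.05 against -0.06 for all genes, and no member had ranges apart, against 2.35% of genes. The Lepob/+ libraries were also those set against WT.

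Averaged over both backgrounds, 0 members were called for either allele by edgeR (0% of genes in both). For carriers of the ob allele against non-carriers, Egr1 had a log2 fold change of -0.52 (SE 0.20, 95% interval -0.96 to -0.09) and Ier2 -0.40 (SE 0.14, 95% interval -0.70 to -0.10), and both had an edgeR adjusted p of 0.512. These 2 members lay at an unadjusted p under 0.05, against 9.64% of genes, of which 3.25% were higher and 6.38% lower. In the fit 4 members were higher and 6 lower, against 54.1% and 45.9% of genes. Leaving out WT replicate 4 gave -0.38 for Egr1 and -0.35 for Ier2. By voom, Ier2 (-0.43, adjusted p = 0.0211) and Junb (-0.38, adjusted p = 0.042) were called, 2 of 10 members, as were 20.5% of all genes. For carriers of the transgene, Nr4a1 alone lay at an unadjusted p under 0.05, against 3.2% of genes (0.953% higher and 2.25% lower). It was at -1.35 (SE 0.60), and at -0.17 without Lepob/+ replicate 4. In the fit 2 members were higher and 8 lower, against 46.4% and 53.6% of genes.

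The interaction asks whether the ob allele acted differently with and without the transgene. By edgeR 0 members were called (0% of genes), and Nr4a1 alone lay at an unadjusted p under 0.05, against 7.98% of genes (2.16% higher and 5.82% lower). Its interaction was -3.02 (SE 1.20, 95% interval -5.58 to -0.46, edgeR adjusted p = 0.564). The interaction was above 0 for 8 members and below for 2, against 42.5% and 57.5% of genes. It was -0.62 without Lepob/+ replicate 4. Fos had 1.30 (SE 0.66, 95% interval -0.11 to 2.71). In the test of any difference among the 4 genotypes, Egr1 and Nr4a1 both had an edgeR adjusted p of 0.697, 0 members and 0% of genes were called, and 2 members against 6.15% of genes lay at an unadjusted p under 0.05.

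**Figure D2:**
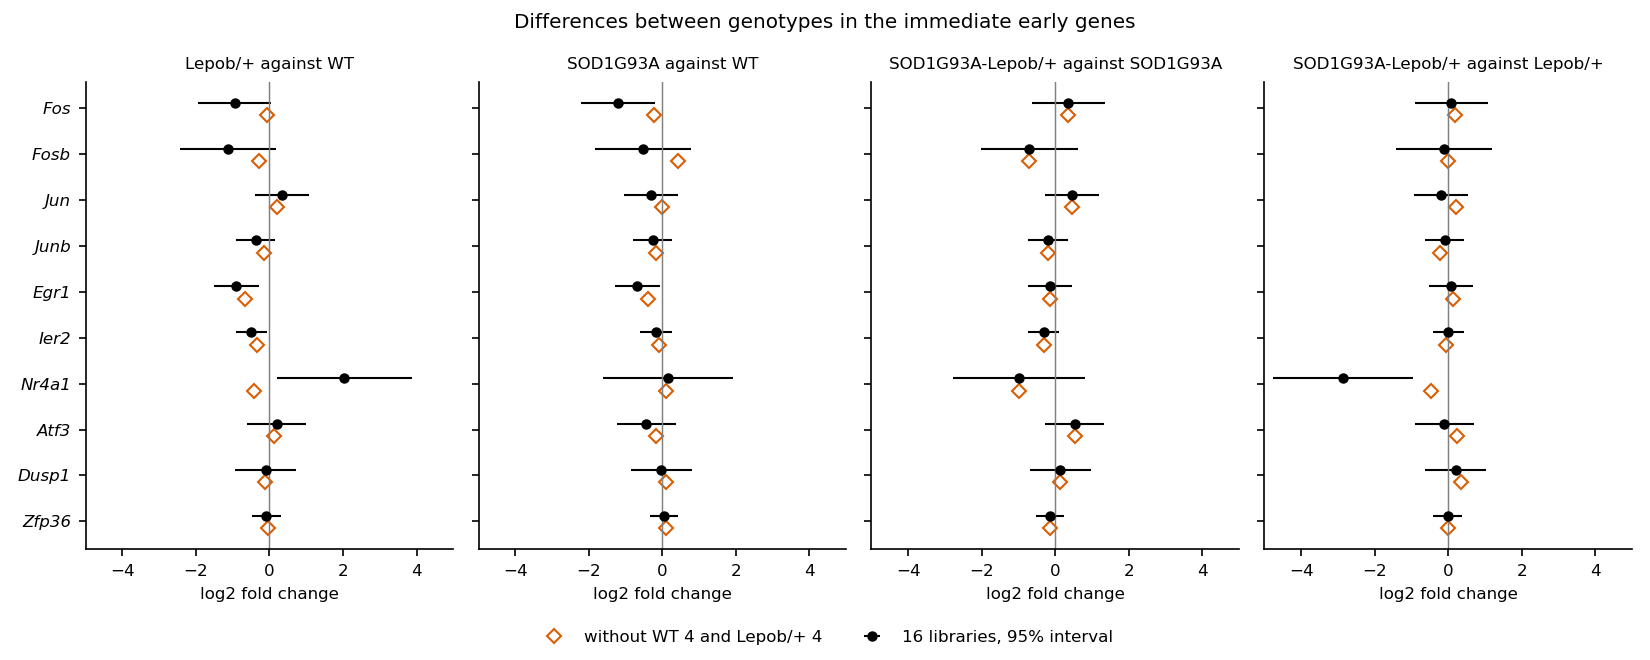
Log2 fold changes of the 10 genes in the 4 comparisons between pairs of genotypes, as black points with 95% intervals from edgeR over 16 libraries, and as open diamonds without WT replicate 4 and Lepob/+ replicate 4. In Lepob/+ against WT the diamond lies far from the point for Nr4a1 (2.04 to -0.41) and Fos (-0.95 to -0.07) and stays lower for Egr1 (-0.90 to -0.65).

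Zfp36 was measured most closely and Nr4a1 least. The biological coefficient of variation, the spread between mice of 1 genotype that edgeR fits, was 21.5% for Zfp36, 23.0% for Ier2, 26.9% for Junb, 30.0% for Egr1, 35.4% for Jun, 39.1% for Atf3 and 39.2% for Dusp1. It reached 46.5% for Fos, 59.4% for Fosb and 77.3% for Nr4a1, against a median of 30.6% over all genes tested. The 95% interval of Zfp36 in Lepob/+ against WT ran from -0.48 to 0.30 on the log2 scale, and that of Fosb from -2.44 to 0.19, so far larger changes of Fosb than of Zfp36 would have gone unseen.

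**Figure D3:**
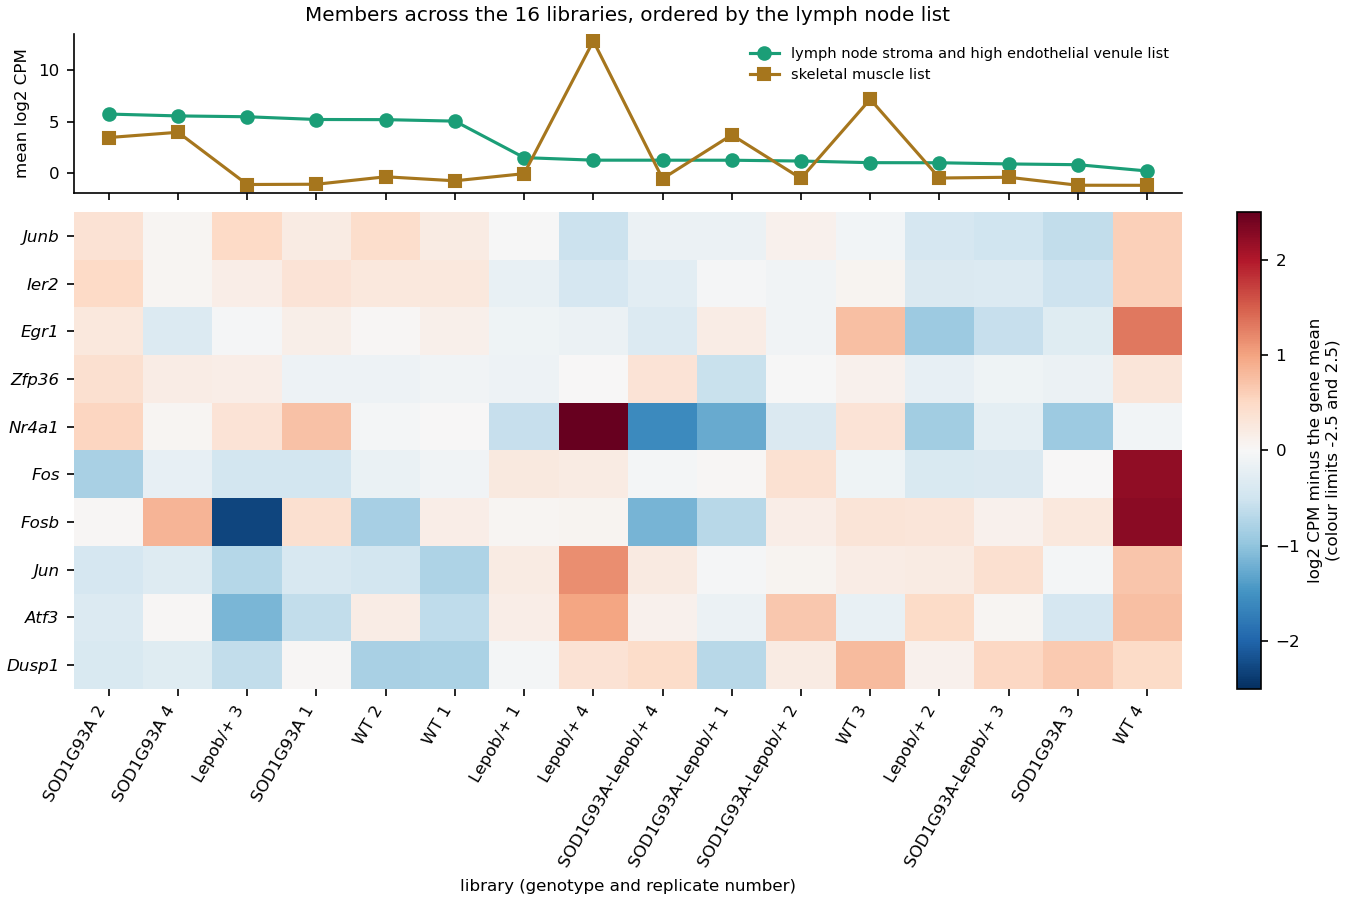
Upper panel, mean log2 CPM of the lymph node and skeletal muscle lists. Lower panel, heat map of the 10 genes (vertical) in the 16 libraries (horizontal, ordered by the lymph node list), coloured by log2 CPM minus the gene's mean over the libraries, with the scale ending at -2.5 and 2.5. The darkest cells are Fos and Fosb in WT replicate 4, Nr4a1 in Lepob/+ replicate 4, which is past the end of the scale, and the low Fosb of Lepob/+ replicate 3 (0.826 CPM).

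Pairs of members were related to very different degrees. Of the 45 pairs of members, 35 had a positive Pearson's r of log2 CPM over the 16 libraries and 10 a negative one, with a median of 0.22 and a range from -0.51 to 0.92. By both r and Spearman's rho, 4 pairs passed an adjusted permutation p under 0.05 (Benjamini-Hochberg over the 45 pairs, 100000 resamples, two-sided). Junb and Ier2 were closest, with r 0.92 (permutation p = 2e-05, adjusted 0.0009), rho 0.92 (adjusted 0.0009), and r 0.88 without the 2 libraries farthest from the median of the first gene. Jun and Atf3 had r 0.81 (permutation p = 0.00011, adjusted 0.00247), rho 0.74 (adjusted 0.0223) and 0.72 without those 2. Egr1 and Ier2 had r 0.73 (permutation p = 0.00065, adjusted 0.00975), rho 0.79 (adjusted 0.0103) and 0.59 without them. Jun and Dusp1 had r 0.70 (permutation p = 0.00252, adjusted 0.0283), rho 0.71 (adjusted 0.0376) and 0.71 without them. As deviations from the genotype means, 6 pairs passed by r: Egr1 with Ier2 did not (r 0.58), while Fos with Fosb (r 0.69, adjusted permutation p = 0.0292), Fosb with Jun (0.72, adjusted 0.0236) and Fosb with Atf3 (0.73, adjusted 0.0209) did. The deviations were permuted freely over all 16 libraries although the genotype means had been removed, so their p-values can be too small. The levels themselves gave r 0.41 for Fosb with Jun and 0.48 for Fosb with Atf3 (adjusted permutation p = 0.306 and 0.214). Leaving out WT replicate 4 and Lepob/+ replicate 3 took these to -0.05 and -0.11, so they rested on those libraries. Without the 2 farthest libraries, Junb with Ier2 was the single pair that still passed. Fos and Fosb, which peaked together, had an r of the levels themselves of 0.60 (permutation p = 0.0434, adjusted 0.196), rho 0.14, and r 0.19 without WT replicate 4 and SOD1G93A replicate 2, so their relation rested on those libraries. All pairs share the same libraries and scaling.

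These relations were set beside the lymph node content of the libraries, which fell into separate clusters. On the mean log2 CPM of the lymph node list, 6 libraries lay at 5.08 to 5.76 and 10 at 0.24 to 1.54. Those clusters are not groups of the study, and their levels are given as a description without a test. Jun was at 45.2 to 61.5 CPM in the 6 rich libraries and 74.7 to 172 CPM in the other 10, with no overlap, as for 15.5% of all genes. Dusp1 had a median of 50.1 CPM in the 6 and 93.5 CPM in the 10, and Atf3 6.78 and 10.4 CPM. Junb went the other way with medians of 63.5 and 47.1 CPM, as did Ier2, Egr1 (61.4 and 53.4 CPM) and Nr4a1 (24.0 and 15.2 CPM). Zfp36 differed little, at 114 and 107 CPM. Except for Jun, the ranges of the 6 and the 10 overlapped for every member.

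Within the clusters the pairs differed in r, over few libraries. Junb with Ier2 had r 0.34 in the 6 rich libraries and 0.94 in the 10 others. Jun with Atf3 had 0.69 and 0.74, Egr1 with Ier2 0.93 and 0.89, and Jun with Dusp1 0.64 and 0.25. The part of lymph node tissue in the levels of these genes was not tested, and since the rich libraries numbered 2 of 4 in WT, 1 for Lepob/+, 3 for SOD1G93A and 0 for SOD1G93A-Lepob/+, it is partly confounded with genotype.

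**Figure D4:**
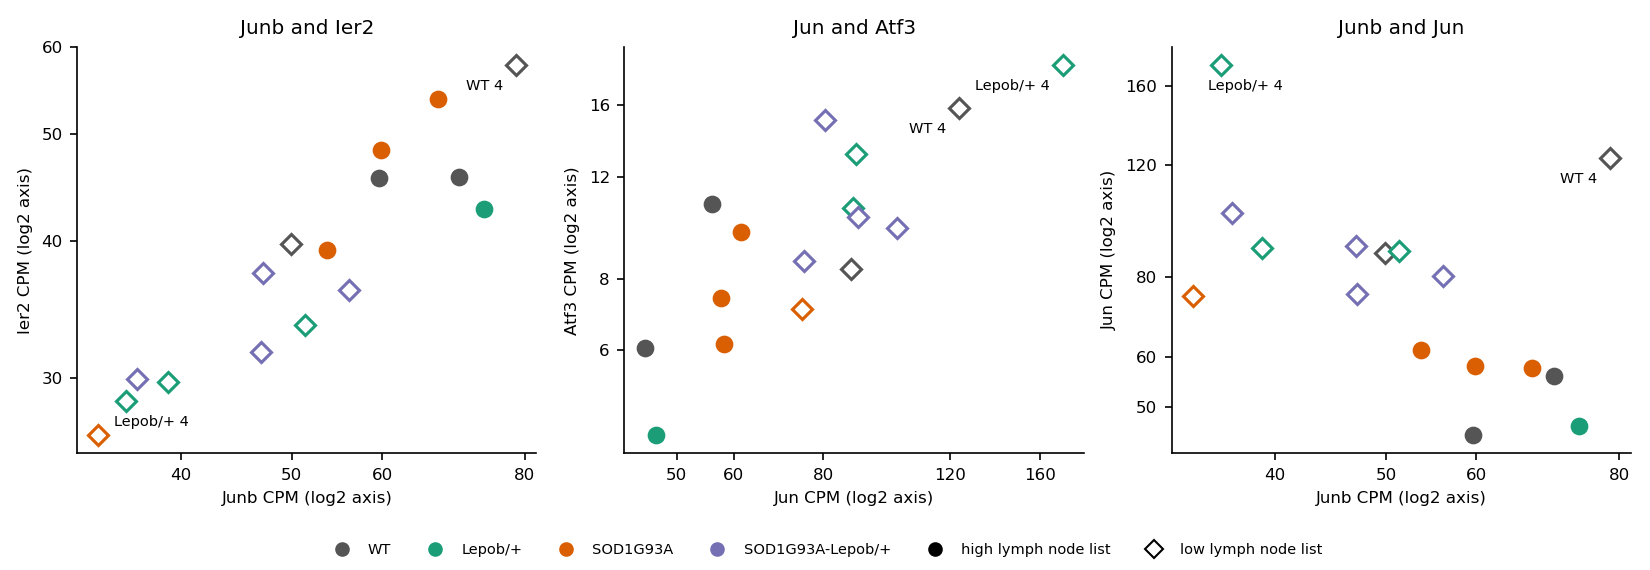
Levels of Junb against Ier2, Jun against Atf3 and Junb against Jun in CPM on log2 axes, with 1 point per library; filled circles are the 6 libraries rich in the lymph node list and open diamonds the 10 others. Junb and Ier2 rise along a line (r 0.92), and all filled circles lie at or under 61.5 CPM of Jun with all diamonds above it.

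A wider list held 40 other immediate early genes, of which 38 were tested. SOD1G93A replicate 2, a library rich in lymphocyte RNA, was highest for 11 of the 38 and WT replicate 4 for 4. Those 4, named after their values were seen, were Jund (182 CPM against a median of 140 in the other 15), Klf4 (171), Ptgs2 (3.65) and Cxcl1 (2.04). WT replicate 4 was lowest for 3 of the list, Klf10 (24.3 CPM), Sik1 (48.1) and Nfkbia (65.3). By edgeR 0 of the 38 were called in any comparison. In SOD1G93A-Lepob/+ against SOD1G93A 10 of the 38 lay at an unadjusted p under 0.05 (2 higher, 8 lower), against 16.5% of genes, and in Lepob/+ against WT and SOD1G93A against WT 0 did. Arc, an effector gene best known from neurons, was at 10.8 ± 6.51 CPM in SOD1G93A against 1.29 ± 0.26 in SOD1G93A-Lepob/+ (SD, n = 4 each). Egr3, a relative of Egr1, was at 16.1 ± 10.9 and 2.73 ± 0.83 CPM in the same genotypes, and Btg2, an antiproliferative gene, at 105 ± 26.4 and 61.5 ± 9.45 CPM. Snai1, a repressor of epithelial genes, was at 5.47 ± 0.70 CPM in SOD1G93A and 9.62 ± 2.62 in SOD1G93A-Lepob/+. Of the 4 SOD1G93A libraries 3 were rich in lymphocyte RNA, and of SOD1G93A-Lepob/+ 0. With the lymph node covariate, an alternative added for these lists after seeing the data, 2 of the 38 lay at an unadjusted p under 0.05 in this comparison, both higher, and 0 lower. Of all 19736 genes, 745 did so in that fit, 476 higher and 269 lower. Arc, Egr3, Btg2 and Snai1 were chosen as the list's smallest p in the test of any difference among the genotypes.

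Genes that act above and below the members were read from 3 further lists. Of 25 kinases and transcription factors that drive immediate early genes, 0 were called by edgeR and at most 2 lay at an unadjusted p under 0.05 in any comparison. Crem, a relative of CREB, was at 7.53 ± 0.63 CPM in SOD1G93A against 9.12 ± 0.92 in SOD1G93A-Lepob/+ (SD, n = 4 each). Of 14 phosphatases and Sprouty genes that damp the pathway, again 0 were called by edgeR, with 4 at an unadjusted p under 0.05 in SOD1G93A-Lepob/+ against SOD1G93A (2 higher, 2 lower), against 16.5% of genes. Dusp10, a phosphatase of stress kinases, reached 156 CPM in the muscle-rich Lepob/+ replicate 4 and 10.45 to 21.5 CPM in the WT, SOD1G93A and SOD1G93A-Lepob/+ libraries, so it peaked where Nr4a1 did. Dusp2, a phosphatase common in lymphocytes, was at 33.1 ± 22.4 CPM in SOD1G93A and 0.998 ± 0.146 in SOD1G93A-Lepob/+. Of 9 genes of the Zfp36 family and its mRNA targets, 7 were tested and 0 called by edgeR. Tnf, the best known target, was at 7.35 ± 5.04 CPM in SOD1G93A and 1.15 ± 0.36 in SOD1G93A-Lepob/+, while Zfp36 itself was at 119 ± 22.0 and 108 ± 26.8 CPM. Within SOD1G93A, where 3 of 4 libraries were rich in lymphocyte RNA, Tnf ran from 0.397 to 11.9 CPM, and its part in the difference of Tnf, Dusp2, Arc and Egr3 was not tested gene by gene.

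The genes whose pattern over the 16 libraries was most like the mean of the members' scaled log2 CPM were Ino80b (r 0.79), Pcdhga1 (0.79), Gm42418 (0.73), Snx19 (0.73) and Gm21988 (0.71). This likeness rested on the replicate 4 libraries of WT and Lepob/+. Without them r over 14 libraries was -0.03 for Ino80b, -0.03 for Pcdhga1, -0.05 for Gm42418, -0.29 for Snx19 and 0.25 for Gm21988. Pcdhga1, a protocadherin gene, was at 41.5 CPM in WT replicate 4 against 0.785 to 2.27 CPM in the others. Gm42418 was at 2986 CPM there against a median of 1022 CPM. The most opposed genes were Xpnpep3 (r -0.80) and Arhgap28 (-0.77), at 10.7 and 2.83 CPM in WT replicate 4 against medians of 29.9 and 11.1 CPM.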

How the data were processed

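The authors trimmed reads with fastp, aligned them to mm10 with HISAT2 2.1.0 and counted reads per gene with featureCounts 2.0.2, and the deposited values are raw counts of 54752 Ensembl genes. The strand setting is not stated, and the labels and the methods name different library kits. Counts entered edgeR 4.0.16 (R 4.3.3). filterByExpr (min.count 10, min.total.count 15) kept 19736 genes, libraries were scaled by TMM, and quasi-likelihood tests over all 16 libraries, with no covariate, were adjusted by Benjamini-Hochberg at 0.05. Log2 values used a prior count of 1. DESeq2 1.42.0, voom with quality weights (limma 3.58.1), other scalings and filters, a replicate block, a lymph node covariate and left-out libraries were alternatives. The fit was tested on simulated data, with genes changed in SOD1G93A-Lepob/+ against SOD1G93A. There edgeR found 19 of 67 genes with a log2 change of 1, 56 of 67 with 2 and 59 of 66 with 3, with 5 false calls. DESeq2 on the compared genotypes found 33 of 67 with a log2 change of 1 and made 106 false calls. Changes of that size could thus be missed by edgeR. The simulation drew each gene on its own, around the same mean share in all libraries apart from the changed genes. It held no lymph node or muscle RNA that moves many genes together, as some of the real libraries do. In the real comparison edgeR called 0 of 10 T cell genes at a median log2 fold change of -5.895. The simulated rates thus do not show which changes edgeR would find in these libraries. The 10 members and the lists were chosen with earlier results of these data known. Other genes named are up to 4 of each list with the smallest p for any difference among the genotypes, and the 5 most like and 5 least like the members' mean. Not all genes that this rule names are reported here. Depth of 36783353 to 61865634 counts per library left the spread between mice larger than counting error for most members. Gene positions are those of GENCODE on GRCm38.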

Additional observations from a re-analysis of the deposited data

Results flagged for a closer look

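In groups of 4 libraries, the gap between the highest or lowest library and its neighbour was set against the whole range of the group. Of the 40 groups tested (10 genes in 4 genotypes), 3 had a library that stood apart, near the 2 that chance gives at about 1 in 20. Fos was at 108.7 CPM in WT replicate 4, where the other WT libraries reached 21.9 CPM. Fosb, in the same library, was at 19.38 CPM, against at most 5.06 CPM in the other WT libraries. Nr4a1 was at 308.0 CPM in Lepob/+ replicate 4, the library with the skeletal muscle RNA, against at most 26.4 CPM in the other Lepob/+ libraries. No explanation of these values was tested.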

How the results depend on the processing

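In Lepob/+ against WT the fitted direction of 5 members (Nr4a1, Fos, Jun, Atf3 and Dusp1) turned under at least 1 alternative. Nr4a1 (2.04) was at -0.41 with voom, -0.36 without the muscle-rich and Y-positive libraries, -0.41 without both replicate 4 libraries, and -0.36 to 2.41 when 1 library was left out, the lowest without Lepob/+ replicate 4. Fos (-0.95) ran from -1.19 to 0.04, the highest without WT replicate 4. edgeR called 0 genes in every comparison. DESeq2 on the compared genotypes called 5 genes in Lepob/+ against WT, 14 in SOD1G93A against WT, 1780 in SOD1G93A-Lepob/+ against SOD1G93A and 31 in SOD1G93A-Lepob/+ against Lepob/+. On all libraries it called 1, 3, 565 and 68 in that order, 39 for carriers of the transgene, 48 for carriers of the ob allele, 51 for the interaction and 18 for any difference. DESeq2 gave no adjusted p for Fos or Nr4a1 in several comparisons. voom called 6212 genes in SOD1G93A-Lepob/+ against SOD1G93A, 2 against Lepob/+, 4048 for carriers of the ob allele and 2 for any difference. edgeR on the compared genotypes called 2 in SOD1G93A-Lepob/+ against SOD1G93A. Without the muscle-rich and Y-positive libraries it called 2 there, 2 against Lepob/+ and 2 for any difference. Leaving out 1 library gave 0 to 1 genes in SOD1G93A against WT, 0 to 3 in SOD1G93A-Lepob/+ against SOD1G93A, 0 to 2 against Lepob/+, for carriers of the transgene, for the interaction and for any difference, and 0 to 254 for carriers of the ob allele, the highest without Lepob/+ replicate 3. Members called were 1 (Jun) by DESeq2 and 1 (Nr4a1) by voom in SOD1G93A-Lepob/+ against SOD1G93A, 2 (Junb and Ier2) by voom for carriers of the ob allele, and 0 in every other alternative run. Of the 4 correlated pairs, 1 passed without the 2 farthest libraries. The cause of these changes was not tested. The labels number replicates alike in each genotype, but of 24 same-numbered pairs of libraries 12 had deviations that correlated over 0.1 and 8 under -0.1, so the numbers were not taken to pair the samples. With the replicate number as a block, edgeR called 0 genes and 0 members. Depth limited Fosb most, at 34 to 733 counts.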

Other observations

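Heat shock chaperones, which also respond to handling and proteotoxic stress, were followed in 11 genes. By edgeR 0 were called in any comparison, and in SOD1G93A against WT 2 lay at an unadjusted p under 0.05, both higher, against 1.64% of all genes higher. Without WT replicate 4 it was 0 of 11, against 352 of 20153 genes, of which 173 were higher. Dnajb1, a partner of HSP70, was at 36.2 ± 0.575 CPM in WT, 33.8 ± 5.21 for Lepob/+, 44.3 ± 2.96 for SOD1G93A and 39.1 ± 2.35 for SOD1G93A-Lepob/+ (SD, n = 4 each). Its WT libraries ran from 35.5 to 36.9 CPM and its SOD1G93A libraries from 41.3 to 48.1 CPM, so these did not overlap, as for 2.05% of genes. Dnaja1 also averaged higher in SOD1G93A, at 132.8 ± 6.01 CPM against 113.5 ± 5.93 in WT. The HSP70 genes Hspa1a (14.8 ± 3.92 against 17.1 ± 3.60) and Hspa1b (28.8 ± 8.78 against 34.0 ± 6.88) averaged lower in SOD1G93A than in WT (SD, n = 4 each).

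Genes of the glucocorticoid and fasting response, 12 in all, had a median log2 fold change of 0.77 in Lepob/+ against WT, and 5 lay higher at an unadjusted p under 0.05, against 3.56% of all genes higher, with 0 called by edgeR. Without the muscle-rich Lepob/+ replicate 4 the median was 0.26 and 2 lay higher at that p, against 120 of 20078 genes. The list summed to 2594 CPM in that library, to 742 to 888 CPM in the other Lepob/+ libraries and to 550 to 764 CPM in WT. Ddit4, an inhibitor of mTORC1, was at 31.9 ± 9.61 CPM in WT, 75.4 ± 3.64 for Lepob/+, 72.4 ± 12.9 for SOD1G93A and 49.3 ± 32.0 for SOD1G93A-Lepob/+ (SD, n = 4 each). Its WT libraries (19.4 to 40.7 CPM) lay below all Lepob/+ libraries (70.2 to 78.4 CPM), and ranges were apart for 0.903% of genes. Pdk4, a kinase that spares glucose and is also abundant in muscle, was at 1052 CPM in the muscle-rich Lepob/+ replicate 4 and 30.6 CPM in WT replicate 4.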
